A study of Mus musculus with 686 samples.

Results

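The pancreatic microRNAs (miRNAs) mmu-miR-216a-5p, mmu-miR-216b-5p and mmu-miR-217-5p, written below without the species prefix, were followed across 13 mouse tissues, and they are 3 of the 1964 miRNAs listed in the count table. They were chosen by name, as the mature 5p strands of a gene cluster known for its expression in the exocrine pancreas, and the rule uses no measured value. Levels are given as counts-per-million values (CPM) over all miRNA counts of a library. The study sequenced small RNA from 686 tissue samples of female BALB/cAnNTac mice that were 3 or 8 months old. Flight mice (FL) lived on the International Space Station, habitat ground controls (HGC) lived on Earth in flight cages with matched temperature, humidity and carbon dioxide, and vivarium controls (VGC) lived in standard cages. Each arm was divided into Live Animal Return (LAR, 348 libraries), in which mice were killed on Earth after the flight mice had returned, and ISS Terminal (TERM, 338 libraries), in which mice were killed earlier, the flight mice on the station. The labels name no mutation and no drug under test in any group, and every group was fed the same kind of food bars. LAR organs were snap frozen at dissection. In TERM only the spleen was taken fresh, into RNAlater. The TERM carcass was frozen whole and thawed later, and the pancreas and the other tissues were dissected from it. LAR and TERM therefore differ in time in flight, return, anaesthetic, dissection and storage at once, and these cannot be told apart.

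The exocrine pancreas makes and secretes digestive enzymes from acinar cells, which form most of the organ, and hormone-producing islets lie scattered among them. A miRNA is a short RNA that guides a silencing complex to messenger RNAs, and its choice of targets depends mainly on its seed, bases 2 to 8. miR-216a, miR-216b and miR-217 are used as markers of acinar tissue, whereas miR-375 is abundant in islet cells. Mouse mesentery is a sheet of fat along the gut in which much of the pancreas is embedded, and the tail of the pancreas reaches the spleen, so that mesenteric adipose tissue (MAT) and spleen are the organs dissected next to it.

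The mature sequences are shown because 2 of the 3 members are near copies of each other, which bears on whether their levels can be read apart. They were taken from RefSeq (mouse build GRCm38.p6), where all 3 members were found, and capitals mark the seed.
miR-216a-5p: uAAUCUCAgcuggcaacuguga
miR-216b-5p: aAAUCUCUgcaggcaaauguga
miR-217-5p: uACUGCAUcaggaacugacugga

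miR-216a-5p and miR-216b-5p were identical at 18 of 22 positions, counted from 1 at the 5′ end. Their differences were U1A, A8U, U11A and C17A, with the miR-216a-5p base first, and only A8U fell in the seed. miR-217-5p matched miR-216a-5p at 6 of 22 positions and shared 2 of 7 seed bases with it, so it forms a seed group of its own. The 3 genes lie on the plus strand of chromosome 11 in the order Mir216b, Mir216a, Mir217, over a span of 17645 bases. On this build miR-216b-5p is at chr11:28746204-28746225, miR-216a-5p at chr11:28757018-28757039 and miR-217-5p at chr11:28763761-28763783. Mir216a and Mir217 lie in the intron between exons 2 and 3 of the long noncoding RNA gene Gm12082, and Mir216b lies 5356 bases before it. The host transcript, listed as Mir217hg among the long noncoding RNAs of the series, had a median of 0 reads in each of the 13 tissues and at most 6 reads in any library. Mir216c is annotated on the opposite strand within Mir216b, and neither of its strands had a read in the 39 pancreas libraries, which allows at most 0.0657 CPM over their pooled counts.

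Because the question of carry-over rests on which tissue a library came from, each library was compared with the 13 tissue medians over 724 miRNAs, leaving out the members and the other strands of their hairpins. Each median was taken over all libraries with that label, and no lowest correlation was required. Other miRNAs that follow the members stayed among the 724, so leaving out libraries by profile is not independent of the members' levels. In 166 of the 686 libraries the nearest tissue was not the labelled one, and 11 of the 44 sequencing pools, called mismatched pools below, held 119 of these among their 168 libraries. Whether samples were exchanged there was not tested, and if they were, the arm, age and collection of these libraries would be in doubt as well as the tissue. The label held for 33 of 39 pancreas libraries, 40 of 47 spleen libraries and 12 of 57 MAT libraries. Among MAT libraries 18 were nearest to the pancreas median, 17 of them from LAR. Pancreas libraries held few miRNA counts, with a median of 866492 (340392 to 6300360) against 3875781 (181393 to 30469295) over the series. Counts over all 7 RNA classes were closer, with medians of 43818128 in pancreas and 54520566 over the series. In TERM pancreas the medians were 702118 miRNA counts and 69624256 counts of all classes. In LAR pancreas they were 947311 and 39797885. By these medians TERM had fewer miRNA counts but more counts of all classes, with overlapping ranges for both. In MAT the miRNA counts ran from 181393 to 9850194 and in spleen from 1848603 to 9556971.

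The 3 members were most abundant in the pancreas. miR-216a-5p had a median of 13436 CPM there (range 15.8 to 42172, n = 39), miR-217-5p 13321 CPM (75.1 to 39574) and miR-216b-5p 3553 CPM (35.3 to 11256). MAT came next, with medians of 66.2 CPM for miR-216a-5p, 37.5 CPM for miR-216b-5p and 103 CPM for miR-217-5p, but its range for miR-216a-5p ran from 0 to 24644 CPM and overlapped that of the pancreas. For miR-216a-5p the spleen followed with 8.20 CPM, brain with 6.86 CPM and gonadal fat (GAT) with 4.52 CPM, and the other 8 tissues had medians between 1.18 and 2.72 CPM, the lowest in lung. For miR-217-5p brain followed MAT with 8.31 CPM, ahead of GAT with 4.24 CPM and spleen with 4.13 CPM. The ranges of all neighbours in these orders overlapped. As a share of the pancreas median, miR-216a-5p reached 0.492% in MAT and 0.0611% in spleen. When libraries nearest to another tissue were left out, the pancreas range of miR-216a-5p was 484 to 42172 CPM (n = 33), that of spleen 0.241 to 1014 CPM (n = 40) and that of MAT 16.0 to 9923 CPM (n = 12). The pancreas value of 484 CPM was that of FL mouse 16 of LAR, which correlated with the pancreas median at only 0.26. The next lowest of these pancreas libraries had 7806 CPM. The members are named for the pancreas, so this order is a description and was not tested.

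**Figure D1:**
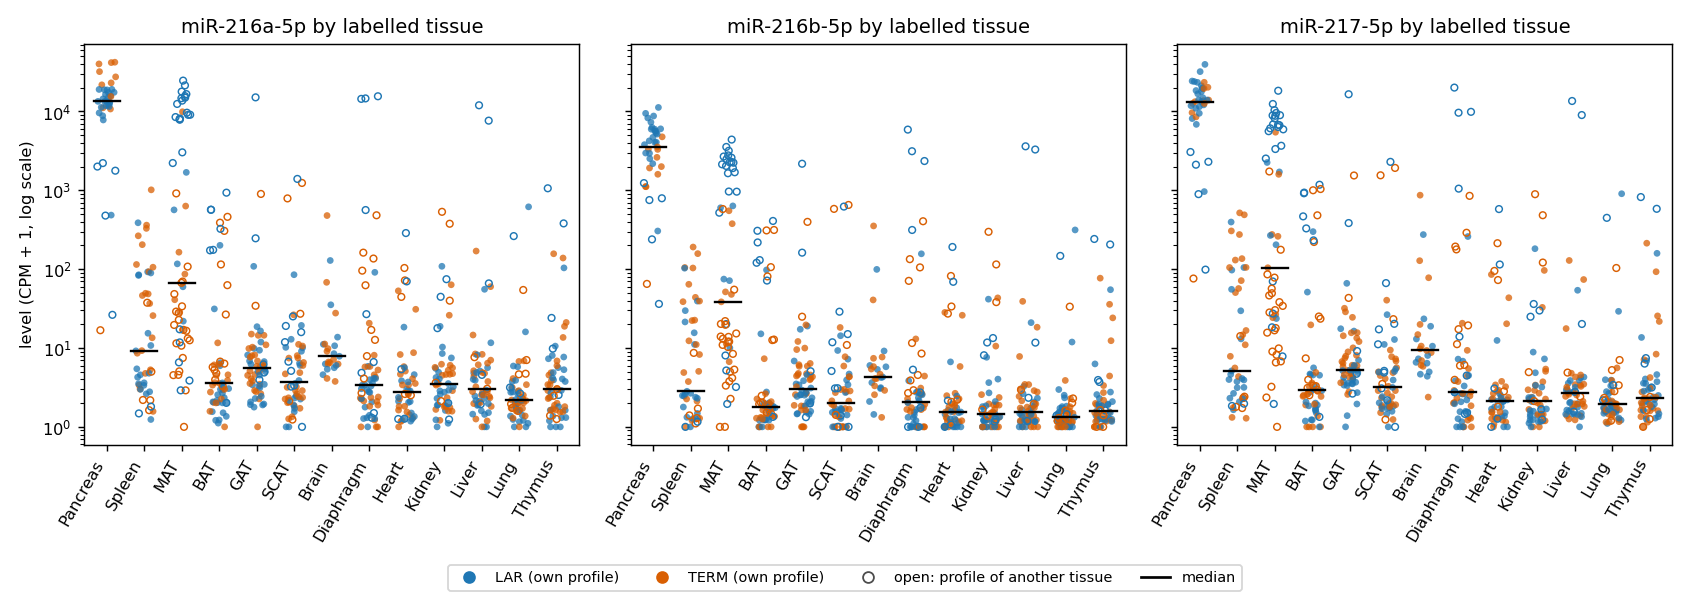
Level of each member in all 686 libraries by labelled tissue (CPM + 1, log axis). Points are libraries, colour marks LAR or TERM, open points are libraries nearest to another tissue and bars are medians. The lowest of the pancreas medians is 3553 CPM, for miR-216b-5p, and most of the high points elsewhere are open.

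Outside pancreas, MAT and spleen, 17 of 543 libraries had more than 500 CPM of miR-216a-5p. All 17 were in mismatched pools, 11 were nearest to the pancreas median, and 1 had its own profile, a lung library of FL LAR mouse 5 with 617 CPM. The highest were diaphragm libraries of FL LAR mouse 13 with 15598 CPM, VGC LAR mouse 11 with 14652 CPM and HGC LAR mouse 2 with 14454 CPM, and a GAT library of VGC LAR mouse 1 with 15107 CPM. Such levels equal those of the pancreas itself. In the 33 other pools the pool median of miR-216a-5p did not exceed 17.7 CPM, whereas in 5 of the 11 mismatched pools it was above 50 CPM and reached 469 CPM.

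The other strands of the hairpins were much rarer but had the same tissue order at the top. miR-217-3p had a pancreas median of 476 CPM, miR-216b-3p of 94.6 CPM and miR-216a-3p of 79.4 CPM, and MAT followed with 3.00, 0.326 and 0.483 CPM. Each is the partner strand that is usually discarded when the silencing complex is loaded.

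The miRNAs whose levels followed the members most closely over all 686 libraries were, among 627 candidates, miR-6969-3p with a Pearson r of 0.97 on the log2(CPM + 1) scale, miR-217-3p and miR-6969-5p with 0.96 each, miR-216a-3p with 0.91, miR-216b-3p with 0.87, miR-375-3p with 0.81, miR-802-5p with 0.75 and miR-802-3p with 0.73. These r values are descriptions, since the libraries share tissues, pools and depth. Mir6969, at chr17:28558441-28558501 on the minus strand, lies between exons of Clps, which encodes the pancreatic enzyme cofactor colipase. Its mature strands are printed because no other locus came closer to the members, and capitals again mark the seed.
miR-6969-3p: uGUUGUUCccaucucugcag
miR-6969-5p: cAGCAGAGuagggagcaaaaga

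miR-6969-3p had a pancreas median of 1222 CPM and its second highest tissue was MAT with 15.1 CPM. Within the 33 pancreas libraries of their own profile its r with the members was 0.26. In the same libraries r was 0.35 for miR-216a-3p, 0.45 for miR-375-3p, 0.48 for miR-216b-3p, 0.68 for each miR-802 strand, 0.70 for miR-6969-5p and 0.82 for miR-217-3p. miR-375-3p was the most abundant of these with 70853 CPM in pancreas, and miR-802-5p was shared with liver, at 14218 CPM in pancreas and 1073 CPM in liver.

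Whether spaceflight changed the members in the pancreas was asked within LAR and within TERM. In LAR miR-216a-5p ran from 25.4 to 19038 CPM in FL with a median of 12243 CPM (n = 10), from 477 to 19097 CPM in HGC with a median of 16937 CPM (n = 8), and from 2215 to 14462 CPM in VGC with a median of 11556 CPM (n = 10). The arms overlapped, and the low ends were FL mice 13, 16, 3 and 14, HGC mouse 14 and VGC mouse 14, each at most 2215 CPM. All of these except FL mouse 16 were nearest to another tissue, and that library was in a mismatched pool. miR-216b-5p had medians of 4062 CPM in FL (35.3 to 9469), 6121 CPM in HGC (238 to 11256) and 3382 CPM in VGC (752 to 8277). For miR-217-5p the medians were 13053 CPM in FL (97.7 to 24340), 20511 CPM in HGC (894 to 39574) and 11260 CPM in VGC (2114 to 23973). The same libraries were low for all 3 members.

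FL minus HGC in LAR pancreas was -0.51 ± 0.67 (log2, SE) for miR-216a-5p, -0.69 ± 0.63 for miR-216b-5p and -0.77 ± 0.64 for miR-217-5p by edgeR's quasi-likelihood test, with Benjamini-Hochberg adjusted p of 0.777, 0.657 and 0.611. None of the 3 passed. The test called 0 of 646 miRNAs (0%) in this comparison, 77 had an unadjusted p under 0.05, and DESeq2 called 3. None of the members was called in FL against VGC (3.10% of miRNAs called) or HGC against VGC (0%), where their lowest adjusted p was 0.941. The median over all miRNAs was 0.21 for FL minus HGC after scaling, and the members lay below it. Over all libraries the mean log2(CPM + 1) in FL and HGC was 10.78 and 12.17 for miR-216b-5p, and 12.34 and 13.84 for miR-217-5p. In libraries of their own profile outside the mismatched pools (n = 5 and n = 6) these means were closer, at 12.49 and 12.82, and 14.01 and 14.42. They are given as a description. The p-values measure the spread between single mice of one mission. In these bulk samples fewer acinar cells and less RNA per cell cannot be told apart.

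In TERM pancreas, where all mice were 3 months old, miR-216a-5p was 15.8, 11128, 21792 and 42172 CPM in the 4 FL mice, 23072, 27494, 32040, 40128 and 41712 CPM in the 5 HGC mice, and 10747 and 15506 CPM in the 2 VGC mice. The VGC values lay below every HGC value, and the FL values spanned both. For miR-216b-5p the FL mice had 64.1, 1918, 2000 and 3324 CPM, the HGC mice 1111, 1116, 1597, 3304 and 4770 CPM, and the VGC mice 2620 and 3553 CPM. miR-217-5p was 75.1, 8540, 13291 and 20276 CPM in FL, 9674, 12619, 12667, 13962 and 23461 CPM in HGC, and 13704 and 19568 CPM in VGC. For miR-216b-5p and miR-217-5p the 3 arms overlapped, with FL mouse 1 the lowest of all. FL minus HGC was -0.67 ± 1.01 for miR-216a-5p, -0.23 ± 0.77 for miR-216b-5p and -0.33 ± 0.86 for miR-217-5p (edgeR adjusted p of 0.801, 0.911 and 0.885). No member was called in FL against HGC, FL against VGC or HGC against VGC, and neither was any other miRNA (0%), while 74, 20 and 8 of 561 miRNAs had an unadjusted p under 0.05. DESeq2 called 3 miRNAs in FL against HGC and 0 in the others.

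FL mouse 1 of TERM stood apart. Its library held 15.8 CPM of miR-216a-5p, yet 95799 CPM of the islet miRNA miR-375-3p, inside the range of the other TERM pancreas libraries (25822 to 113697 CPM). Its summed level of the 7 pancreas epithelium and acinar miRNAs was 15756 CPM, against 75739 to 168919 CPM in the other 10 TERM libraries. Its 5 lymphoid and myeloid miRNAs summed to 29944 CPM, against 1152 to 10842 CPM in the others, and its nearest tissue was MAT. The part of other cells in its values was not tested. Without it FL minus HGC was 0.16 for miR-216b-5p and 0.08 for miR-217-5p, and without HGC mouse 3 it was 0.11 for miR-216b-5p, so the sign of those differences turned on single libraries. It also turned with library sizes taken over all 7 RNA classes, which gave 0.26, 1.08 and 0.80.

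**Figure D2:**
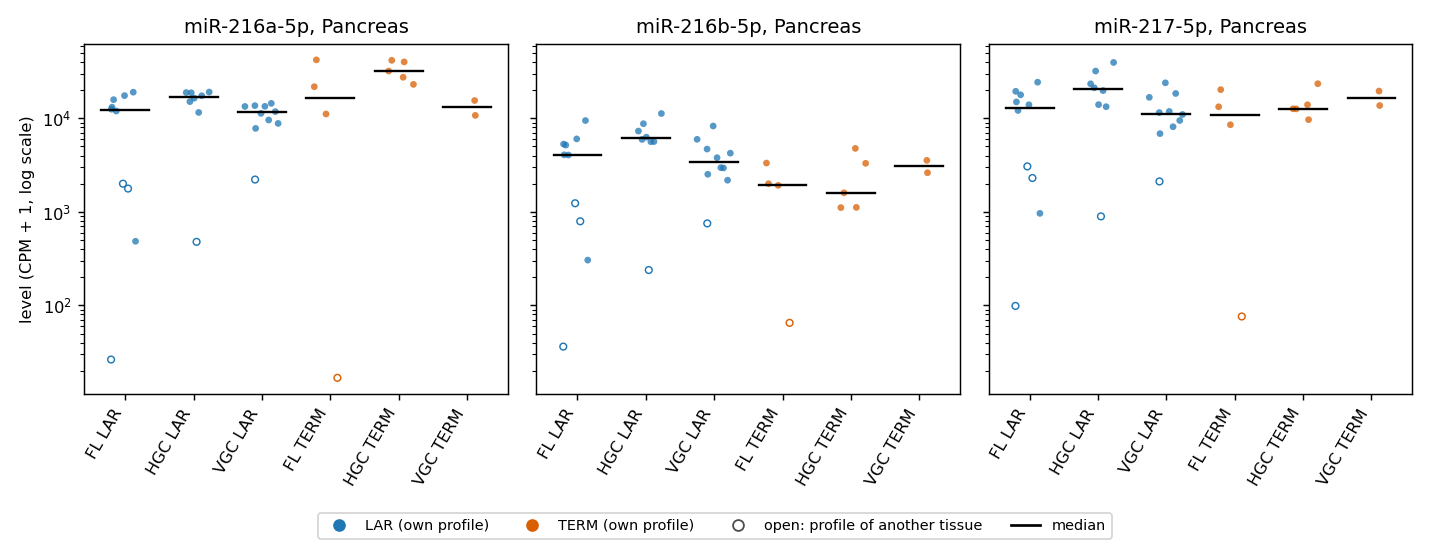
Level of each member in the 39 pancreas libraries by arm and collection (CPM + 1, log axis). Points are libraries, open points are libraries nearest to another tissue and bars are medians. The arms overlap, and the 6 open points of miR-216a-5p lie at or below 2215 CPM.

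Age could be compared in LAR pancreas. miR-216a-5p had a median of 11807 CPM at 3 months (25.4 to 19097, n = 15) and 13403 CPM at 8 months (484 to 19038, n = 13), miR-216b-5p 4073 and 4694 CPM, and miR-217-5p 12135 and 16769 CPM. The ages overlapped for every member. With arm as a term, 8 minus 3 months was 0.33 ± 0.54, 0.37 ± 0.51 and 0.51 ± 0.51 (log2, SE, in the same order; edgeR adjusted p of 0.902, 0.847 and 0.781). None of the 3 members passed, and 0% of all miRNAs did, with 56 of 646 at an unadjusted p under 0.05 and 1 called by DESeq2. The test of whether the flight effect differed between ages called no member either (0.929% of miRNAs called), with a lowest adjusted p of 0.919.

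The collection comparison, TERM against LAR, separated the members. In pancreas miR-216a-5p had a median of 23072 CPM in TERM (15.8 to 42172, n = 11) and 12847 CPM in LAR (25.4 to 19097, n = 28), while miR-216b-5p was at 2000 CPM in TERM (64.1 to 4770) and 4467 CPM in LAR (35.3 to 11256). miR-217-5p was at 13291 CPM in TERM (75.1 to 23461) and 13646 CPM in LAR (97.7 to 39574). The groups overlapped for all 3, but 7 of the 11 TERM libraries had more miR-216a-5p than any LAR library. With arm and age as terms, TERM minus LAR was 1.13 ± 0.61 for miR-216a-5p, -0.83 ± 0.55 for miR-216b-5p and 0.14 ± 0.56 for miR-217-5p (edgeR adjusted p of 0.171, 0.270 and 0.903). None of these passed, although 25.8% of the 627 miRNAs tested did, and the median over all miRNAs was -0.23. With the 33 libraries of their own profile the differences were 0.82 for miR-216a-5p and -1.11 for miR-216b-5p, and both passed (edgeR adjusted p of 0.0395 and 0.0112), while miR-217-5p at -0.15 did not (adjusted p of 0.744). In that fit 39.6% of the 543 miRNAs tested were called. With library sizes of all 7 RNA classes miR-216b-5p was called as well, at -1.65 (adjusted p of 0.0263), where 55.2% of all miRNAs were called, and miR-217-5p turned to -0.81 without being called.

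The ratio of miR-216a-5p to miR-216b-5p reads within a library needs no library size, and this measure was chosen after its values were seen. In LAR pancreas it had a median of 2.56 (0.719 to 5.42), so that miR-216a-5p was usually the more frequent of the pair. In TERM pancreas the ratio was 0.247, 4.10, 4.36, 5.76, 5.80, 6.56, 6.98, 21.1, 26.1, 28.8 and 36.0, and the 4 highest were FL mouse 4 and HGC mice 1, 4 and 5. The mean log2 ratio was 2.90 ± 2.01 (SD, n = 11) in TERM and 1.29 ± 0.57 (n = 28) in LAR, a difference of 1.61, which is given as a description with no test. With libraries of their own profile the ranges were 4.10 to 36.0 (n = 10) and 1.37 to 5.42 (n = 23), and the difference was 1.99. Among mice of 3 months alone it was 1.65. These differences do not take arm into account. By arm the median ratio was 2.30 in LAR (0.719 to 3.23) and 6.18 in TERM (0.247 to 21.1) for FL, 2.34 (1.70 to 3.09) and 26.1 (5.76 to 36.0) for HGC, and 3.02 (1.37 to 5.42) and 4.23 (4.10 to 4.36) for VGC, so the 2 VGC libraries of TERM lay inside the LAR range of their arm. miR-217-5p to miR-216b-5p had medians of 2.90 in LAR and 5.51 in TERM.

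The passenger strands of miR-216a and miR-216b went the other way from their 5p partners between LAR and TERM. miR-216a-3p had a median of 172 CPM in LAR and 28.0 CPM in TERM pancreas libraries of their own profile, whereas miR-216b-3p had 92.9 and 192 CPM. miR-217-3p was at 665 and 467 CPM, lower in TERM as was miR-217-5p in the same libraries, at 14982 and 13498 CPM. In those of these libraries with at least 10 reads of the 3p strand, the reads of miR-216a-5p per read of miR-216a-3p had a median of 78.7 in LAR (46.9 to 257, 23 of 23 libraries) and 827 in TERM (253 to 2733, 9 of 10). For miR-216b the same quotient was 59.8 in LAR (19.9 to 242, 22 of 23) and 14.7 in TERM (3.57 to 69.1, 10 of 10), and for miR-217 it was 24.8 (23 of 23) and 30.8 (10 of 10). The quotient was thus higher in TERM for miR-216a and lower for miR-216b, with overlapping ranges for both and no test.

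**Figure D3:**
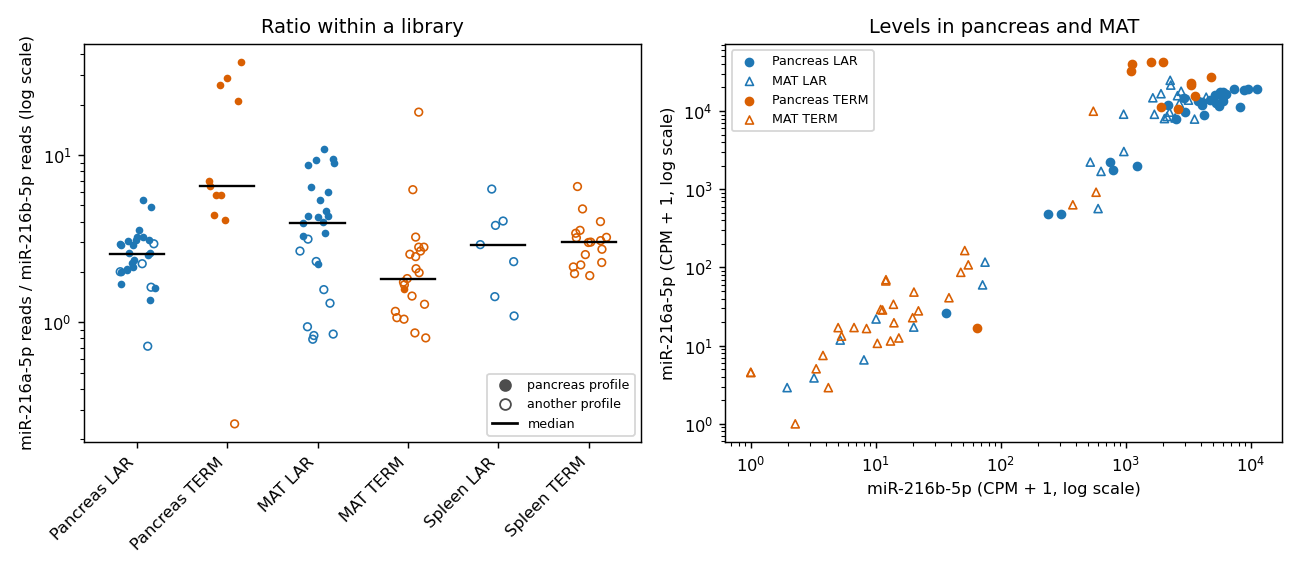
Left panel, reads of miR-216a-5p per read of miR-216b-5p in pancreas, MAT and spleen libraries with at least 10 reads of each (log axis). Filled points are nearest to the pancreas median, open points to another tissue, bars are medians. Right, the levels of the pair in pancreas (circles) and MAT (triangles), as CPM + 1 on log axes, with blue for LAR and orange for TERM. In the left panel LAR pancreas libraries reach 5.42 and TERM pancreas libraries 36.0, with overlap below 5.42 and 1 TERM library at 0.247.

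Markers of other cells were read in the same comparison, in which 10.0% of all miRNAs were called higher and 15.8% lower in TERM. Of the 33 listed markers 5 were called higher and 2 lower. Of the 7 pancreas epithelium and acinar miRNAs none was called between TERM and LAR in pancreas, with differences from -0.74 for miR-148a-3p to 1.36 for miR-141-3p, and of the 3 islet miRNAs miR-7a-5p was higher in TERM (1.18, edgeR adjusted p of 0.0459) and miR-375-3p was not called (-0.11, adjusted p of 0.912). The liver miRNA miR-122-5p was higher in TERM (3.00, adjusted p of 0.00113), as were 2 of the 3 gut and kidney epithelium miRNAs, miR-192-5p (0.94) and miR-194-5p (0.95). Of the 5 lymphoid and myeloid miRNAs miR-150-5p was lower (-1.67, adjusted p of 0.0168). Of the 4 smooth muscle and stroma miRNAs miR-199a-3p was higher (0.93, adjusted p of 0.00223) and miR-214-3p lower (-0.91, adjusted p of 0.0187). The summed level of the pancreas epithelium and acinar list ranged from 16045 to 165013 CPM in LAR and from 75739 to 168919 CPM in TERM libraries of their own profile, and the part of other cells in the members' differences was not tested.

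MAT showed the clearest contrast. In LAR the 28 MAT libraries had a median of 8063 CPM of miR-216a-5p (1.91 to 24644), 1671 CPM of miR-216b-5p (0.953 to 4403) and 5780 CPM of miR-217-5p (0.953 to 18340). In TERM the 29 MAT libraries had medians of 21.8 CPM (0 to 9923), 11.1 CPM (0 to 578) and 29.2 CPM (0 to 5458). The groups overlapped at both ends, but 19 LAR libraries and 1 TERM library exceeded 1000 CPM of miR-216a-5p. TERM minus LAR was -6.39 ± 1.05 for miR-216a-5p, -5.41 ± 0.82 for miR-216b-5p and -5.21 ± 0.96 for miR-217-5p (edgeR adjusted p of 2.98e-06, 5.61e-07 and 1.89e-05). All 3 members were lower in TERM, against 44.8% of the 737 miRNAs called in either direction and 23.7% called lower.

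High MAT values were found in every arm of LAR. The 17 LAR libraries nearest to the pancreas median held 2219 to 24644 CPM of miR-216a-5p. Over all 28 LAR MAT libraries the 7 pancreas epithelium and acinar miRNAs summed to a median of 55355 CPM (1105 to 132545) and the 3 islet miRNAs to 30277 CPM (440 to 108203), against 2361 CPM (823 to 40393) and 2039 CPM (341 to 17971) in the 29 TERM libraries. All 7 pancreas epithelium and acinar miRNAs and all 3 islet miRNAs were lower in TERM MAT, where 23.7% of all miRNAs were called lower. All 5 lymphoid and myeloid miRNAs were higher, where 21.0% were called higher. The lymphoid sum had a median of 6380 CPM in LAR and 72829 CPM in TERM. Without the mismatched pools the members' differences were -6.50, -5.38 and -5.18, and all 3 were still called (edgeR adjusted p of 1.79e-05, 3.27e-06 and 6.87e-05), as were 47.3% of all miRNAs. In the 12 MAT libraries that kept their own profile the members were not called, with differences of -0.24, -1.46 and -0.81 (adjusted p of 0.985, 0.683 and 0.867), and 0.274% of all miRNAs were called. This fit cannot show whether MAT itself differed, because the profiles still held miRNAs that follow the members, such as miR-6969-3p (r of 0.97). Leaving out the pancreas-like libraries therefore also left out high values of the members. The 12 libraries of their own profile, 5 of LAR with 20.9 to 1689 CPM of miR-216a-5p and 7 of TERM with 16.0 to 9923 CPM, all lay above the miR-216a-5p medians of the other tissues except pancreas. The highest, FL mouse 2 of TERM, was almost as near to pancreas (r of 0.65) as to MAT (0.66). Of the TERM MAT libraries 12 were nearest to the spleen median, and the part of other tissue in the members' values was not tested.

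Pancreas and MAT of the same mouse could be set side by side, taking pancreas libraries of their own profile. In the 21 LAR mice the MAT level of miR-216a-5p had a median of 71.8% of that in the pancreas (0.0116% to 187%), that of miR-216b-5p 32.4% and that of miR-217-5p 27.5%. MAT exceeded 10% of the pancreas in 14 of these mice for miR-216a-5p and exceeded the pancreas itself in 7. In the 10 TERM mice the medians were 0.142%, 0.876% and 0.506%, and only FL mouse 2, with 89.2%, was above 10% for miR-216a-5p. The miR-216a-5p to miR-216b-5p ratio had a median of 4.65 (2.22 to 10.9, n = 17) in the pancreas-like MAT libraries of LAR. In LAR pancreas of its own profile it was 2.61 (1.37 to 5.42, n = 23), with overlapping ranges and no test.

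**Figure D4:**
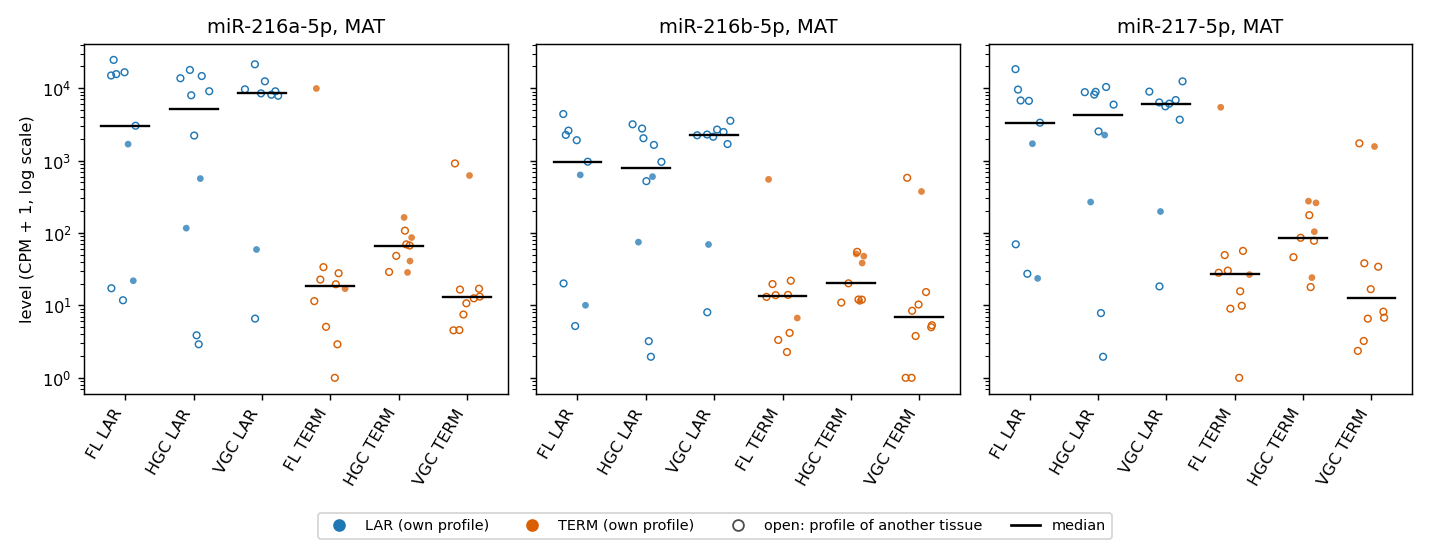
Level of each member in the 57 MAT libraries by arm and collection (CPM + 1, log axis). Points are libraries, open points are libraries nearest to another tissue and bars are medians. Most LAR libraries exceed 1000 CPM of miR-216a-5p in each arm, and among TERM libraries only FL mouse 2 at 9923 CPM does.

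Flight did not separate the MAT libraries. In LAR the medians of miR-216a-5p were 3031 CPM in FL, 5105 CPM in HGC and 8497 CPM in VGC, with ranges of 10.8 to 24644, 1.91 to 17871 and 5.57 to 21417 CPM that overlapped almost fully. None of the 9 member tests in LAR was called (0% of all miRNAs in each comparison), with the lowest adjusted p at 0.930, and DESeq2 called none of them. In TERM the medians were 17.3, 66.2 and 11.9 CPM. FL minus HGC of miR-216a-5p was 3.90 ± 1.53 (edgeR adjusted p of 0.465), although the median of FL lay below that of HGC. Without FL mouse 2, at 9923 CPM, it was -2.38 (edgeR adjusted p of 0.471), and with all libraries DESeq2 gave -2.18 (adjusted p of 0.00750), so the direction depends on that library and on the tool. No member was called in TERM by edgeR (0%), and DESeq2 called 3 of the 9 tests. These were miR-216a-5p in FL against HGC, where DESeq2 called 0.401% of the 749 miRNAs, and miR-216a-5p and miR-217-5p in HGC against VGC (2.32 and 2.58, DESeq2 adjusted p of 0.00416 and 0.0119), where it called 0.267%.

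Age was called in TERM MAT but also turned on that mouse. miR-216a-5p ran from 0 to 9923 CPM at 3 months with a median of 27.5 CPM (n = 15), and from 1.90 to 107 CPM at 8 months with a median of 20.2 CPM (n = 14). The ages overlapped, and FL mouse 2 at 9923 CPM, VGC mouse 1 at 913 CPM, VGC mouse 2 at 630 CPM and HGC mouse 3 at 163 CPM, all 3 months old, lay above every older mouse. Mice of 8 months minus 3 months was -4.34 ± 1.31 for miR-216a-5p, -2.92 ± 1.02 for miR-216b-5p and -4.08 ± 1.25 for miR-217-5p (edgeR adjusted p of 0.0281, 0.0481 and 0.0304), where 16.8% of miRNAs were called and 11.5% called lower. Without FL mouse 2 the differences were -1.44, -1.18 and -1.58 and none passed (adjusted p of 0.294, 0.448 and 0.315). For miR-216b-5p and miR-217-5p the medians were higher at 8 months, at 11.9 against 11.1 CPM and 35.2 against 25.7 CPM. In LAR MAT no member was called by age (0%), with a lowest adjusted p of 0.994.

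Spleen held far less. The 21 LAR libraries had medians of 3.57 CPM of miR-216a-5p (0.241 to 387), 1.45 CPM of miR-216b-5p (0 to 102) and 2.93 CPM of miR-217-5p (0.649 to 395), and the 26 TERM libraries, whose spleens were dissected fresh, had 30.2 CPM (0.572 to 1014), 7.47 CPM (0 to 190) and 13.4 CPM (0.286 to 517). The ranges overlapped almost fully, but 7 TERM libraries and 1 LAR library exceeded 100 CPM of miR-216a-5p. TERM minus LAR was 1.19 ± 0.75, 1.27 ± 0.73 and 1.20 ± 0.74 (edgeR adjusted p of 0.694, 0.653 and 0.694), so that none passed, with 0.889% of 787 miRNAs called and 0 members by DESeq2. The highest spleen library for miR-216a-5p was FL mouse 14 of TERM, with 1014 CPM of miR-216a-5p, 156 CPM of miR-216b-5p and 488 CPM of miR-217-5p.

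The balance of the members could be read in the spleen libraries with at least 10 reads of each of the pair. In them the miR-216a-5p to miR-216b-5p ratio had a median of 2.91 (1.09 to 6.26, n = 7) in LAR and 3.02 (1.90 to 6.48, n = 17) in TERM. Pancreas had medians of 2.56 in LAR and 6.56 in TERM, and its ranges overlapped those of spleen in both. miR-375-3p, the islet marker, had a median of 37.3 CPM in LAR spleen (4.86 to 4677) and 579 CPM in TERM spleen (4.86 to 2225), but it was not called (1.20, edgeR adjusted p of 0.694). The other islet miRNAs, miR-7a-5p and miR-7b-5p, had medians of 1831 and 4.84 CPM in LAR and 1462 and 3.28 CPM in TERM, and were not called either (-0.38 and -1.11, edgeR adjusted p of 0.694 and 0.301). The highest LAR spleen of the members, HGC mouse 5 with 387 CPM of miR-216a-5p, was also the highest for miR-375-3p at 4677 CPM.

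By arm no member was called in spleen. In LAR the medians of miR-216a-5p were 46.0 CPM in FL, 2.44 CPM in HGC and 3.57 CPM in VGC, and in TERM they were 47.5, 24.8 and 10.0 CPM. The arms overlapped in both. The lowest adjusted p among the 9 LAR tests was 0.186, for miR-217-5p in HGC minus VGC at 3.60 ± 1.26 by edgeR, a value that includes HGC mouse 5 with 395 CPM. In TERM the lowest was 0.589, and 0% of miRNAs were called in any arm comparison of spleen. By age the lowest adjusted p was 0.490 in LAR and 0.379 in TERM (0% called in each). Of the 9 arm tests 2 in LAR and 1 in TERM had an unadjusted p under 0.05, and DESeq2 called none of the members. The flight effect in LAR spleen differed between ages by 6.69, 7.04 and 7.15 (log2), which did not pass either (lowest edgeR adjusted p of 0.842, 0% called).

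**Figure D5:**
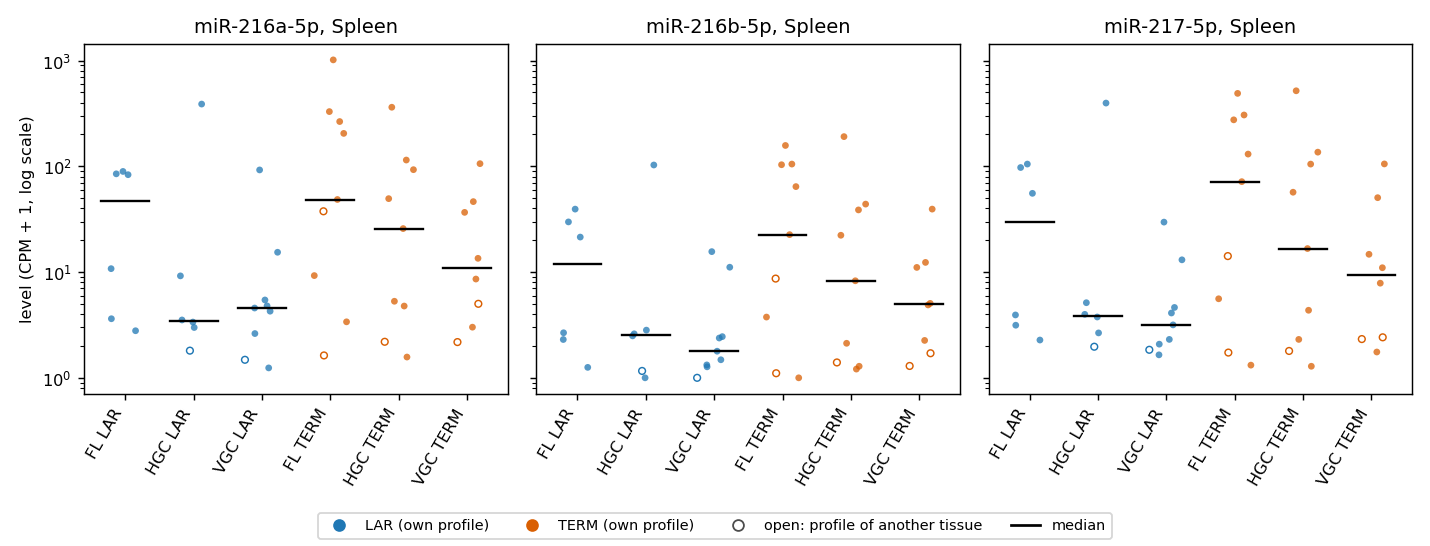
Level of each member in the 47 spleen libraries by arm and collection (CPM + 1, log axis). Points are libraries, open points are libraries nearest to another tissue and bars are medians. Levels of miR-216a-5p reach 1014 CPM in FL TERM and 387 CPM in HGC LAR, and the lowest library of every arm is at or below 1.79 CPM.

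Reads shared within a sequencing pool were examined as well, using libraries of their own profile outside the mismatched pools and leaving out pancreas and MAT. Where the pool also held a library labelled pancreas, the median of miR-216a-5p was 2.22 CPM (n = 265), and where it did not, 2.09 CPM (n = 166). The medians were 0.737 and 0.584 CPM for miR-216b-5p and 1.58 and 1.29 CPM for miR-217-5p. For spleen alone the medians of miR-216a-5p were 8.23 CPM (n = 18) with and 12.1 CPM (n = 16) without a library labelled pancreas in the pool. Of the 12 pools without such a library, the mismatched ones left out, 8 held a library of another label that was nearest to the pancreas median. Only 4 pools held neither, and in them the medians of miR-216a-5p, miR-216b-5p and miR-217-5p were 0.762, 0.361 and 0.823 CPM (n = 54), against 2.41, 0.719 and 1.62 CPM (n = 377) in the others, with overlapping ranges and no test. The 3 spleen libraries in those 4 pools had the highest miR-216a-5p of the spleen libraries of their own profile outside the mismatched pools, at 361, 387 and 1014 CPM. This division was made after the values were seen. In MAT of all profiles miR-216a-5p had 68.7 CPM (n = 31) with and 53.1 CPM (n = 26) without, whereas miR-216b-5p had 20.9 and 42.2 CPM and miR-217-5p 77.2 and 153 CPM.

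Across the 13 tissues the members were called by arm 12 times among 117 tests in LAR and 4 times in TERM. FL against HGC in LAR called all 3 members in liver (7.45, 8.10 and 8.76) and in lung (6.54, 7.32 and 6.93), in a comparison that called 1.61% of all miRNA tests. FL against VGC in LAR called all 3 in liver (7.04, 7.21 and 7.50) and in GAT (-7.11, -6.13 and -8.13), where 0.714% of all tests were called. In TERM 2 members were called in lung in FL against HGC (0.415% of all tests) and 2 in GAT in FL against VGC (0.692%). Every one of these calls was lost when the mismatched pools were left out, which left 0 calls in LAR and 0 in TERM, and HGC against VGC called none (0.157% of tests in LAR, 0.198% in TERM). The flight effect differed between ages in 0 of 36 member tests in LAR (0.129% of all tests called), of which 9 had an unadjusted p under 0.05 and 1 was called by DESeq2. By age 0 of 36 member tests were called in LAR (0.172%; 9 at an unadjusted p under 0.05, 0 by DESeq2) and 4 in TERM (1.77%), 3 in MAT and 1 for miR-217-5p in subcutaneous fat. TERM against LAR called 4 of 39 (7.59% of all tests), the 3 in MAT and miR-216a-5p in diaphragm (-5.06, edgeR adjusted p of 0.0454). The diaphragm comparison includes the 3 LAR libraries at 14454 to 15598 CPM named above, and without the mismatched pools the difference was -0.75 (edgeR adjusted p of 0.668, 0.830% of miRNAs called). Without libraries of another profile the members were called in other tissues, 2 of them in pancreas and all 3 in thymus (1.85, 2.37 and 1.83), in fits that called 39.6% of miRNAs in pancreas, 45.7% in thymus and 8.71% over the 13 tissues. Thymus had -0.12, -0.01 and -0.43 without the mismatched pools and no member was called there, although 39.3% of its miRNAs were.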

How the data were processed

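Small RNA libraries of 686 samples were sequenced in 44 pools on 8 plates. The authors aligned the reads with miRMaster to GRCm39 and miRBase and deposited estimated counts per miRNA without normalization, in which 0.790% of the miRNA values and none of the members' values were fractional. Counts were rounded for tests. CPM was computed over all miRNA counts of a library.

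Groups follow the labels. Tests used edgeR 4.0.16 (quasi-likelihood, TMM, R 4.3.3) on miRNAs with at least 5 reads in 10% of a fit's libraries, with Benjamini-Hochberg adjustment over all miRNAs in the fit and a threshold of 0.05. Arms were fitted within tissue and collection, age with arm as a term, and TERM against LAR with arm and age as terms. Alternatives included DESeq2 1.42.0, other library sizes, no filter, plate and age terms, a replicate block and permutation tests (scipy 1.17.1). Tests were first run on simulated data. Library profiles used Pearson r on log2(CPM + 1), and a pool was called mismatched where more than 1 in 3 libraries was nearest to another tissue. Mouse numbers were shared between arms by different animals. Sequences and coordinates are from GRCm38.p6, not the build of the counts. The floor for 0 reads is 3 counts and covers counting error only.

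The members, the marker lists and the miRNAs named were chosen with earlier results of these data known. Named miRNAs are the members, the other strands of their hairpins, the listed markers and the 8 miRNAs most correlated with the members.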

Additional observations from a re-analysis of the deposited data

Results flagged for a closer look

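Of 17 groups of 4 to 10 libraries examined, 5 held a library that stood far from the others of its group in 1 or more members. The 14 values come from 5 libraries, so those of 1 library are not separate findings, and chance gives such a value in about 1 in 20 groups for each member. In LAR pancreas, HGC mouse 14 was low at 477 CPM of miR-216a-5p, 238 CPM of miR-216b-5p and 894 CPM of miR-217-5p, and its nearest tissue was brain. VGC mouse 14 of LAR was low in pancreas at 2215 CPM of miR-216a-5p and 2114 CPM of miR-217-5p, and its nearest tissue was spleen. In TERM pancreas, FL mouse 1 was low at 15.8 CPM of miR-216a-5p, 64.1 CPM of miR-216b-5p and 75.1 CPM of miR-217-5p, with MAT as its nearest tissue.

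In TERM MAT, FL mouse 2 was high at 9923 CPM of miR-216a-5p, 550 CPM of miR-216b-5p and 5458 CPM of miR-217-5p. Its nearest tissue was the labelled one, but its r was 0.66 with MAT and 0.65 with pancreas. This library shared a sequencing pool with the pancreas library of FL mouse 1 of TERM, and whether samples were exchanged was not tested. HGC mouse 5 of LAR was high in spleen at 387 CPM of miR-216a-5p, 102 CPM of miR-216b-5p and 395 CPM of miR-217-5p, also with the labelled tissue as its nearest.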

How the results depend on the processing

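The 12 member calls by arm in LAR became 0 without the mismatched pools, with plate as a term, with the Wilcoxon rank-sum test and with the replicate block, 3 without libraries of another profile and 5 with age as a term. The 4 calls in TERM became 7 with DESeq2 and 0 under those same 6 settings. Deviations of pancreas libraries with the same number correlated from -0.29 to 0.46 in LAR, above 0.1 in 9 of 26 pairs, and from -0.23 to 0.25 in TERM, above 0.1 in 4 of 8. Not every pair passed 0.1, so the numbers were not taken to pair the mice, although the 3 LAR pairs of number 14, whose libraries were all low in the members, had 0.17, 0.46 and 0.35. By age, LAR gained 1 call with 7-class library sizes, without mismatched pools and without libraries of another profile, and TERM went from 4 to 8 with 7-class sizes, 9 with no filter, and 0 without libraries of another profile and in FL, HGC or VGC mice alone. DESeq2 gave 1 call for age by flight, and 7-class sizes gave 7 calls for TERM against LAR. There the 5 calls without libraries of another profile were in pancreas and thymus and shared none with the 4 reported.

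For FL minus HGC in TERM pancreas, 7-class sizes gave 0.26, 1.08 and 0.80 for miR-216a-5p, miR-216b-5p and miR-217-5p, and leaving out the library of another profile gave 0.16 and 0.08 for the latter pair. Leaving out 1 library at a time gave -1.39 to -0.27, -0.66 to 0.16 and -0.76 to 0.08, with 0.11 for miR-216b-5p without HGC mouse 3. For FL minus HGC in TERM MAT, in the same order, the reported 3.90, 1.26 and 2.40 became -2.18, -1.47 and -2.16 with DESeq2, -2.01, -1.16 and -1.75 with the replicate block, -2.99, -1.65 and -2.48 with plate as a term, -2.38, -1.60 and -2.33 without FL mouse 2, -0.58, -0.14 and -0.73 in the rank-sum comparison, and -1.59, -0.84 and -1.49 in the permutation test. For age in TERM MAT, in the same order, the values were -1.39, -0.15 and -1.08 without libraries of another profile, -6.95, -3.33 and -5.40 in FL alone, -0.57, -0.02 and -0.50 in HGC alone, -4.79, -4.96 and -5.31 in VGC alone, -1.44, -1.18 and -1.58 without FL mouse 2, and -0.96, -0.57 and -0.76 in the permutation test, none of which passed. miR-216b-5p there also missed the threshold with miRNA library sizes (-2.72) and 7-class sizes (-3.01).

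For TERM minus LAR in pancreas, libraries of their own profile gave 0.82, -1.11 and -0.15, 7-class sizes gave -1.65 for miR-216b-5p and -0.81 for miR-217-5p, and the permutation test gave -0.02 for miR-217-5p. In MAT the values were -0.24, -1.46 and -0.81 for libraries of their own profile, and -4.88 for miR-216a-5p and -3.28 for miR-217-5p in mice of 3 months. Scaled to the counts of all 7 classes instead, the pancreas medians were 278, 76.6 and 217. On the CPM scale of the report, LAR MAT medians without mismatched pools and libraries of another profile were 87.3, 72.2 and 235. Of the other 401 values, those with a test kept their direction and side of the threshold. Counts stayed within a preset fold, and levels moved by less than the SD of the CPM values in their group. That SD is wide where a few libraries are high, as in MAT, so large relative changes of a level can fall under this rule. The cause of the changes was not tested. TERM pancreas and LAR brain hold 1 age, so age could not be a term there. Leaving out FL mouse 2 in TERM MAT was chosen after seeing the data.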
